A study of Mus musculus and Rattus norvegicus with 30 samples.

Results

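The left ventricle of 332-treated mice was compared after pressure overload and after sham surgery. The members are the 10 mouse libraries whose labels name the compound 332: 5 hearts after transverse aortic constriction (TAC, a band that narrows the aorta) and 5 hearts after a sham operation, of 30 libraries in the series. The series asks what agonists of all 3 estrogen-related receptors do in heart muscle. It also holds 8 mouse hearts given vehicle (5 TAC and 3 sham) and 12 libraries of cultured rat heart cells, which were not used here. All 18 mouse libraries come from wild-type animals, and the 10 members share intraperitoneal 332 for 6 weeks after the operation. The labels give no strain, sex, age, dose of 332 or pressure gradient, and they do not say whether a library is 1 animal or a pool. The p-values therefore measure the spread between these libraries. No member is free of 332, so the comparison is of TAC with sham in its presence.

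Pressure overload raises the wall stress of the left ventricle. In the textbook account the myocytes enlarge, return to part of the gene program of the fetal heart (natriuretic peptides, skeletal actin, beta myosin), and reduce fatty acid oxidation, while fibroblasts deposit collagen. The ERR family (alpha, beta and gamma) comprises orphan nuclear receptors related to the estrogen receptor. With the coactivators PGC-1 alpha and beta they drive genes of fatty acid oxidation, the citrate cycle and the respiratory chain. 332 activates them.

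The promoters of 4 fetal-program genes that rose are shown because these genes moved together and carry textbook stress elements. Each window holds 300 bases, 250 before to 50 after the transcript start, from the RefSeq table in build GRCm38.p6. Myh7 has 2 windows there, of which the first listed is shown, and the other 3 genes have 1 each. The capitals mark the MCAT element CATTCC on either strand (read as GGAATG on the other), a site of TEAD factors, and in Acta1 also a CArG box, the site of serum response factor. The Acta1 window lies at chr8:123894726-123895025 on the minus strand and the Myh7 window at chr14:54994577-54994876 on the minus strand. The Nppb window lies at chr4:147985650-147985949 on the plus strand and the Ankrd1 window at chr19:36119795-36120094 on the minus strand.
Acta1: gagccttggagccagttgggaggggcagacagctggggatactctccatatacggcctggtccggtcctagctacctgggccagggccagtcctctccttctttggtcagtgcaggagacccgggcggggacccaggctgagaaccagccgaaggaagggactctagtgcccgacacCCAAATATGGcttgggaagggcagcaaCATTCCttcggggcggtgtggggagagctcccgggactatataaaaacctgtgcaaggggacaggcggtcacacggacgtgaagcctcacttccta
Myh7: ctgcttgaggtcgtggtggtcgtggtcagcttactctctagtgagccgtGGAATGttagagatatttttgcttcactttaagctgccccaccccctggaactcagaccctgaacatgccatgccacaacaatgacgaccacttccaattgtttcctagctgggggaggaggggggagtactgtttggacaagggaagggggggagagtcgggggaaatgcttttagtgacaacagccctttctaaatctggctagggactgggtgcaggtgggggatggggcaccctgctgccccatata
Nppb: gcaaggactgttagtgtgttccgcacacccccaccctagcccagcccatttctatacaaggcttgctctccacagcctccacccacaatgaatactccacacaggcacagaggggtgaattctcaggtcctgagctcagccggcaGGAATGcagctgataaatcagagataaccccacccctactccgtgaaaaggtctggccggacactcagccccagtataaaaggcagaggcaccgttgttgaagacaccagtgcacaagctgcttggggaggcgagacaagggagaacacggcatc
Ankrd1: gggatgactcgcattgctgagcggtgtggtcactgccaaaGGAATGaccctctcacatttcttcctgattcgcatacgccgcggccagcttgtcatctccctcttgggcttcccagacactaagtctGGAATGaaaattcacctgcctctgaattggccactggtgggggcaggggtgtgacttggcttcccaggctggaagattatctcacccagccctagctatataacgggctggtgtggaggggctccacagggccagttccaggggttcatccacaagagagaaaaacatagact
The Ankrd1 window held 2 copies of the MCAT letters and the other 3 windows 1 each, and the motifs did not overlap. MCAT stood in 14.66% of all 32851 promoter windows of the table. It stood in 16.31% of 1275 matched genes that rose, 16.01% of 1293 that fell and 14.28% of 8007 that did not pass. A gene counted if any of its windows held the motif, so shares of genes and shares of windows are unlike measures. Over all 10575 matched genes the MCAT share was 14.73% and that of the ERR element named below 0.8794%. The CArG box stood in 1.961% of the genes that rose, 1.237% of those that fell and 1.624% of those that did not pass. The ERR response element TNAAGGTCA was in none of the 4 windows shown, and in 0.7843% of genes that rose, 1.005% of genes that fell, 0.8742% of genes that did not pass and 1.282% of all windows. These letters are a description of the windows and were not tested as sites.

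Of 14047 genes tested, 3349 passed edgeR's quasi-likelihood test at a Benjamini-Hochberg adjusted p of 0.05 (23.8% of the genes tested). These were 1653 higher in TAC (11.8%) and 1696 lower (12.1%), while the median log2 change over all genes was 0.00. At least 2-fold changes were 359 higher and 214 lower. This balance depends on the scaling of the libraries. The TMM factors used here set the typical gene at no change. With library totals alone the median of all genes was 0.15 and 3701 of 4495 calls were higher. In limma on log2(TPM + 0.1) as deposited the median was 0.35 and 4832 of 5053 calls were higher, while centred on the median gene of each library 818 of 2101 were higher. The mitochondrial genome held 50.7 to 63.0% of TPM in the sham hearts and 45.9 to 61.2% in the TAC hearts. Rises and falls below are therefore relative to the typical gene. Small falls need not be falls on the unscaled TPM, and 14 called genes named here have the other sign there: Atp5pb, Canx, Esrra, Hspa5, Itga6, Klhl30, Ndufs1, Pccb, Pfkm, Slc25a3, Slc25a4, Sod1, Tpm1 and Vegfb. Among the called genes 1461 had ranges that did not overlap between the 5 TAC and 5 sham hearts, and 11.1% of all tested genes had such ranges. In bulk tissue, fewer cells of a type and less RNA per cell cannot be told apart.

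The 5 TAC hearts did not respond to the same extent. For each called gene the hearts were ranked by their log2 difference from the sham mean of the same run. TAC heart 4 lay farthest from sham in 1677 called genes (50.1%), TAC heart 3 in 854, TAC heart 1 in 501, TAC heart 5 in 169 and TAC heart 2 in 148. TAC hearts 5 and 2 lay nearest to sham in 1205 and 1043 called genes. The median difference over called genes, taken in the direction of the call, was 0.57 in TAC heart 4 and 0.31 in TAC heart 5 on the log2 scale. Without TAC heart 4, 2488 genes passed, 2423 of them among the 3349.

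Libraries held 11375894 to 16599899 estimated counts. Hearts 1 to 3 of each group came from a first sequencing run and hearts 4 and 5 from a second, read from the names of the deposited files, and the run was a term of the fit. In the first run the 3 sham hearts shared 1 lane (lane 3) and the 3 TAC hearts another (lane 4), so lane and surgery cannot be told apart there. The 3 sham hearts of lane 3 also stood apart from all other 15 mouse libraries in 10 transcripts, described below. In the first run alone 1662 genes passed (12.1% of those tested). Of these 1646 could be tested in the second run, where lanes did not differ, and 1616 (98.2%) moved the same way, against 74.6% of all 13493 genes. The second run alone, with 2 hearts against 2, called 52 genes (0.375%). The tissue label was checked against markers: 12 cardiomyocyte genes summed to 52389 to 82953 CPM (the count scaled to the TMM-normalised depth of its library) in the 10 hearts. Myl7, the atrial light chain, made at most 0.0174% of Myl7 plus Myl2, and the T cell gene Cd3e stood at no more than 0.0883 CPM.

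Both cardiac natriuretic peptide genes rose. Nppa, which encodes atrial natriuretic peptide (ENSMUSG00000041616.10), stood at 95.5, 77.8, 25.4, 63.7 and 142 CPM in the 5 sham hearts and at 708, 1052, 1614, 3233 and 683 CPM in the 5 TAC hearts. Every TAC heart exceeded every sham heart, and TAC heart 4 was the highest. Its log2 change was 4.16 (SE 0.62, edgeR adjusted p = 0.000457). Nppb, for brain natriuretic peptide (ENSMUSG00000029019.9), stood at 103, 85.7, 65.5, 57.0 and 48.6 CPM in sham and at 283, 339, 305, 337 and 207 CPM in TAC. The 5 TAC hearts were close to each other for Nppb, unlike for Nppa, and its log2 change was 2.06 (SE 0.23, edgeR adjusted p = 5.1e-05). Of the other 5 genes of the family tested, Corin, the protease that activates the atrial peptide precursor, fell by 0.51 (edgeR adjusted p = 0.00123). The receptors Npr1, Npr2 and Npr3 had log2 changes of -0.06, 0.01 and 0.11, and the protease gene Furin -0.03, and none of these passed.

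**Figure D1:**
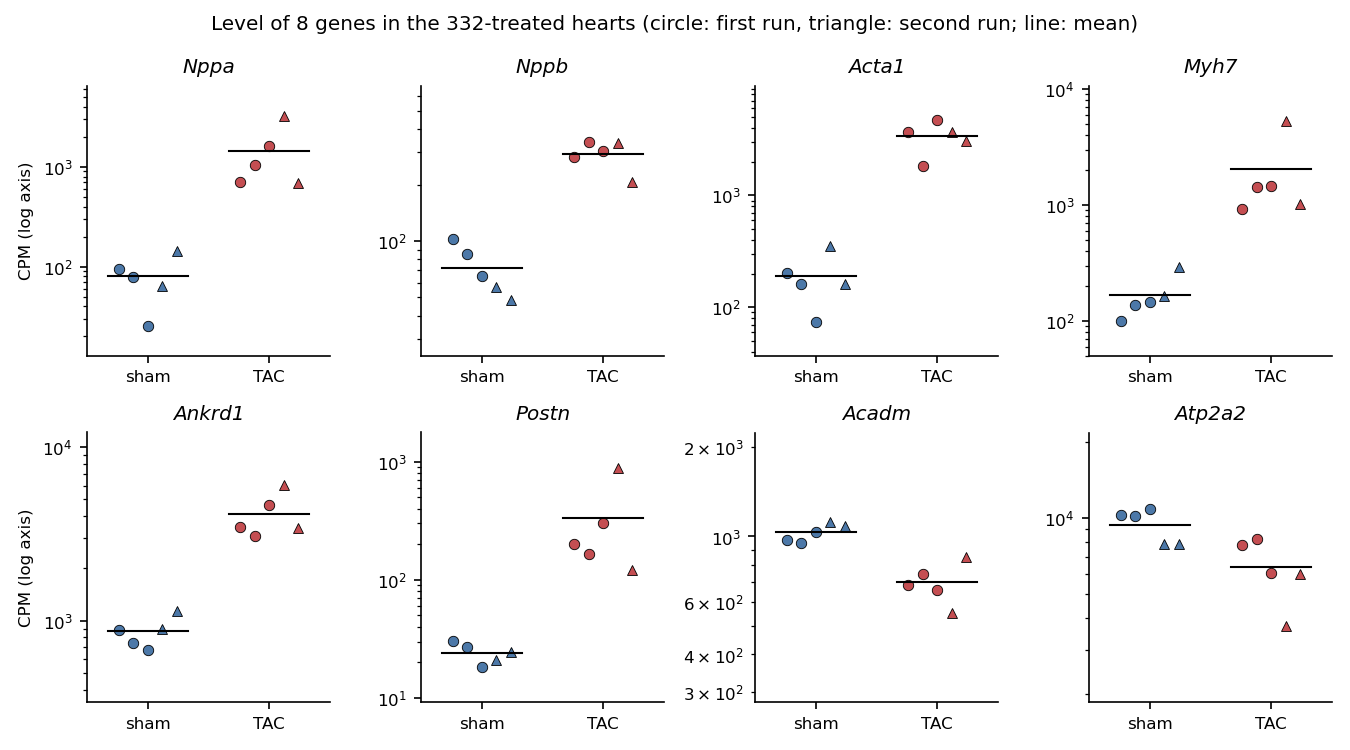
CPM on a log axis in each of the 10 hearts treated with 332 for 8 genes, with circles for the first run, triangles for the second and a line at the group mean. Nppa, Nppb, Acta1, Myh7, Ankrd1 and Postn are higher in all 5 TAC hearts than in all 5 sham hearts, with TAC heart 4 at 5306 CPM for Myh7, while Acadm is lower and Atp2a2 is lower within each run.

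Skeletal actin and beta myosin rose with the peptides. Acta1, the actin of skeletal muscle and of the fetal heart (ENSMUSG00000031972.6), stood at 204, 161, 73.4, 350 and 160 CPM in sham and at 3685, 1834, 4756, 3678 and 3054 CPM in TAC. All TAC hearts were far above all sham hearts, and the log2 change was 4.20 (SE 0.40, edgeR adjusted p = 1.45e-05). Myh7, the slow beta myosin heavy chain (ENSMUSG00000053093.17), stood at 99.9, 136, 147, 165 and 291 CPM in sham and at 927, 1428, 1461, 5306 and 1022 CPM in TAC. TAC heart 4 held more than 3 times the level of any other heart, and the log2 change was 3.51 (SE 0.49, edgeR adjusted p = 0.000302). Myh6, the fast alpha chain of the adult mouse ventricle, stood at 24747, 25938, 27608, 33174 and 34795 CPM in sham and at 21461, 21079, 17264, 17601 and 28236 CPM in TAC. Its TAC hearts lay below the sham hearts of their own run but overlapped across runs, and it fell by 0.46 (SE 0.10, edgeR adjusted p = 0.00247).

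On the per-length TPM scale Myh7 made 0.712, 0.682, 0.657, 0.717 and 1.19% of Myh7 plus Myh6 in the sham hearts and 6.54, 9.46, 12.7, 29.1 and 5.40% in the TAC hearts. The means were 0.791% ± 0.223 (SD, n = 5) and 12.6% ± 9.61 (SD, n = 5), and the exact permutation test gave the smallest two-sided p it can give over 252 splits (0.00794, 0.0238 adjusted over the 6 shares tested). Within the first run the shares differed by 8.89 points and within the second by 16.3 points. Acta1 made 2.64% ± 1.20 (SD, n = 5) of Acta1 plus Actc1, the adult cardiac actin, in sham and 33.8% ± 9.001 (SD, n = 5) in TAC, with the same exact p and adjusted p. Actc1 itself had a log2 change of -0.03 (edgeR adjusted p = 0.866). These gene pairs are near-identical in parts of their coding sequence, so the split of reads between their members rests on the authors' quantification. With any 1 of sham hearts 2 to 5 left out, the adjusted exact p of the Myh7 share was between 0.0635 and 0.0714, and the difference stayed between 7.74 and 13.7 points over all left-out hearts.

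Among 10 myosin chains and partners tested, 4 rose and 3 fell. Mybpc2, the fast skeletal form of myosin binding protein C, stood at 11.7, 14.2, 8.21, 14.4 and 16.9 CPM in sham and at 45.0, 37.9, 38.0, 37.4 and 39.8 CPM in TAC. The TAC hearts were nearly level, and the log2 change was 1.60 (SE 0.14, edgeR adjusted p = 1.6e-06). Myl1 rose by 0.88 and Mybpc3, the cardiac form of the binding protein, by 0.34. The ventricular light chain Myl2 fell by 0.41 and Mylk3, the kinase that phosphorylates it, fell by 0.45. Of 11 troponin and tropomyosin genes 3 rose and 7 fell, with a median log2 change of -0.36. Tnni3, adult cardiac troponin I, stood at 2887, 2989, 3237, 5017 and 4788 CPM in sham and at 1826, 2093, 2203, 2611 and 3719 CPM in TAC. It was lower in TAC within each run and fell by 0.60 (edgeR adjusted p = 6.48e-05), while Tnnt2 fell by 0.36 and Tpm1 by 0.30 (0.23, not passed, on the unscaled TPM). The 7 falls include Tnni1 at -2.70, which is high in the lane 3 sham hearts described below, and without those hearts 2 of the 7 passed. The 3 that rose were Tnnc1 by 0.19 (-0.01 on the centred TPM), Tpm2 by 0.63 and Tpm4 by 0.22, and none of the 3 passed without TAC heart 4. Their calls were also lost in 6 to 8 of the 10 fits that left out 1 heart, with adjusted p up to 0.118.

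Genes of the Z-disc and intercalated disc that respond to stretch rose almost as a set, 15 of 19 tested higher and 2 lower, with a median log2 change of 0.76. Ankrd1, a nuclear and sarcomeric ankyrin repeat protein (ENSMUSG00000024803.10), stood at 888, 745, 676, 898 and 1136 CPM in sham and at 3445, 3072, 4665, 6067 and 3403 CPM in TAC. Its groups were far apart, and the log2 change was 2.25 (SE 0.24, edgeR adjusted p = 2.94e-05). Xirp2, an actin-binding protein of the intercalated disc, stood at 382, 334, 359, 365 and 393 CPM in sham and at 1594, 974, 2010, 2590 and 1283 CPM in TAC, a log2 change of 2.20. Sham hearts lay within a narrow band for Xirp2, whereas TAC hearts spread between the lowest in heart 2 and the highest in heart 4.

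Flnc, the muscle filamin, stood at 277, 287, 268, 252 and 263 CPM in sham and at 771, 548, 707, 683 and 512 CPM in TAC (log2 change 1.26). Nrap, an actin-anchoring protein, stood at 556, 580, 497, 594 and 654 CPM in sham and at 1228, 948, 1024, 927 and 1176 CPM in TAC. Nrap rose by 0.88 with the smallest adjusted p of the list (edgeR, 3.73e-07). Ankrd23 rose by 1.62 and Csrp3, the muscle LIM protein, by 0.51. Without TAC heart 4 the list still held 15 rises, and without the 3 sham hearts of lane 3 it held 10, with a median log2 change of 0.81.

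Signals that drive hypertrophy moved in both directions, 4 of 29 tested higher (13.8%, near the share over all genes) and 8 lower (27.6%) with a median of -0.06. Rcan1, a feedback inhibitor of calcineurin that calcineurin induces, stood at 42.4, 55.6, 34.5, 42.5 and 40.0 CPM in sham and at 101, 73.0, 177, 238 and 69.1 CPM in TAC, a log2 change of 1.59 (edgeR adjusted p = 0.0121). Ace, angiotensin converting enzyme, rose by 1.15 and the growth factor gene Hbegf by 1.31. Agtr1a, the angiotensin receptor, stood at 33.6, 32.0, 33.4, 30.9 and 29.7 CPM in sham and at 18.4, 24.2, 22.8, 13.1 and 17.8 CPM in TAC. All TAC hearts lay below all sham hearts, and Agtr1a fell by 0.74 (edgeR adjusted p = 0.000146). Mef2a, a transcription factor of muscle, fell by 0.59.

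Collagens and their assembly enzymes rose nearly throughout. Of 32 tested, 30 rose and 0 fell, with a median log2 change of 1.03. Col1a1 stood at 41.1, 40.9, 25.9, 41.9 and 41.9 CPM in sham and at 108, 63.3, 106, 203 and 71.6 CPM in TAC, a log2 change of 1.51 (SE 0.28, edgeR adjusted p = 0.00172). Sham heart 3 was the lowest and TAC heart 4 the highest, and the groups did not overlap. Col3a1 stood at 105, 119, 67.9, 118 and 107 CPM in sham and at 273, 156, 241, 521 and 178 CPM in TAC, a log2 change of 1.39. Col8a1, a short-chain collagen, stood at 18.9, 12.9, 10.8, 14.3 and 14.2 CPM in sham and at 96.5, 43.9, 94.8, 153 and 46.7 CPM in TAC, a log2 change of 2.61 (edgeR adjusted p = 0.000249). In all 3 collagens the order of the TAC hearts put heart 4 first and hearts 2 and 5 last.

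Serpinh1, the collagen chaperone of the endoplasmic reticulum, varied little between sham hearts, with 118, 120, 116, 114 and 118 CPM in sham and 145, 164, 182, 205 and 159 CPM in TAC. It rose by 0.54 (edgeR adjusted p = 0.000209). P4ha1, a prolyl hydroxylase of collagen, rose by 1.08 and Col18a1 by 0.79. Lox, the crosslinking enzyme, had a log2 change of 2.59 (edgeR adjusted p = 0.0388), and its call was lost in 7 of the 10 fits that left out 1 heart, with a log2 change of 1.37 and an adjusted p of 0.156 without TAC heart 4. Without TAC heart 4, 24 of the list rose, and without the 3 sham hearts of lane 3, 8 rose while the median stayed at 1.03. The share of Col1a1 in Col1a1 plus Col3a1 on the TPM scale was 14.7% ± 3.51 (SD, n = 5) in sham and 15.3% ± 1.95 (SD, n = 5) in TAC, which did not pass (adjusted exact p = 0.738).

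Matricellular proteins, which sit in the matrix and signal to cells, gave 4 of the 10 largest rises among called genes of at least 5 CPM whose ranges did not overlap. Of 23 tested, 13 rose and 1 fell. Postn, periostin of activated fibroblasts, stood at 30.1, 27.1, 18.4, 20.9 and 24.6 CPM in sham and at 201, 167, 302, 881 and 121 CPM in TAC. All TAC hearts were above all sham hearts, and the log2 change was 3.70 (SE 0.56, edgeR adjusted p = 0.000506) and 2.98 without TAC heart 4. Cilp stood at 6.99, 7.54, 2.74, 4.59 and 5.31 CPM in sham and at 61.5, 57.4, 96.1, 187 and 38.1 CPM in TAC, a log2 change of 3.99 (edgeR adjusted p = 0.000134). Comp rose by 4.39, from 1.70, 0.933, 0.706, 1.11 and 1.09 CPM in sham to 4.03, 12.5, 16.2, 86.2 and 4.88 CPM in TAC, and by 3.33 without TAC heart 4. Thbs4 rose by 4.12, from 2.02 to 3.14 CPM in sham to between 12.9 and 119 CPM in TAC, and by 3.35 without TAC heart 4. The same heart was the highest for each of these 4 genes. Ccn2, connective tissue growth factor, stood at 39.8, 52.2, 38.7, 31.6 and 49.7 CPM in sham and at 92.1, 147, 151, 368 and 97.4 CPM in TAC, a log2 change of 1.94. Frzb, a secreted Wnt antagonist, rose by 2.30 and Thbs3 by 0.91.

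Elastic fibre genes and proteoglycans counted 12 rises and 2 falls of 22, with a median log2 change of 0.77. Mfap4 rose by 3.01, the proteoglycan Bgn by 1.70, Fbln2 by 0.99 and Lum by 0.86. Fn1, fibronectin, had a log2 change of 0.69 and did not pass (edgeR adjusted p = 0.0672). Efemp1 went against the list, at 6.01, 9.33, 8.65, 10.6 and 10.8 CPM in sham and 3.69, 3.43, 1.00, 1.55 and 2.37 CPM in TAC, and fell by 1.92 (edgeR adjusted p = 0.00205).

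In the TGF-beta list 12 of 23 rose and 3 fell. Ltbp2, a latent TGF-beta binding protein family member of the matrix, had the largest rise of all genes named by size of change. It stood at 2.33, 1.48, 0.441, 1.32 and 2.33 CPM in sham and at 22.3, 22.8, 45.6, 136 and 13.6 CPM in TAC. The groups were well apart, with a log2 change of 4.87 (SE 0.79, edgeR adjusted p = 0.000763) and 4.06 without TAC heart 4. Ltbp1 moved the other way, from 49.3, 44.8, 52.9, 51.7 and 46.0 CPM in sham to 32.8, 39.3, 28.2, 30.3 and 30.2 CPM in TAC, and fell by 0.60 (edgeR adjusted p = 1.1e-05). Ltbp4 rose by 0.60, the ligand Tgfb2 by 1.65, the activin subunit Inhba by 1.35 and the activin antagonist Fstl3 by 1.91. Gdf15, a stress cytokine, stood at 0.139 to 0.777 CPM in sham and at 0.791 to 10.7 CPM in TAC (log2 change 3.02, edgeR adjusted p = 0.0287). Its call was lost without TAC heart 4 (2.10, adjusted p = 0.123) and without sham heart 4 or 5.

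Metalloproteinases and their inhibitors counted 9 rises and 2 falls of 23. Timp1 rose from 1.08, 1.32, 0.971, 0.835 and 0.654 CPM in sham to 4.29, 3.79, 7.25, 27.1 and 4.94 CPM in TAC (log2 change 3.20, and 2.36 without TAC heart 4). Timp4, the cardiac tissue inhibitor, moved the other way, from 24.3, 30.9, 43.2, 23.7 and 24.9 CPM in sham to 9.18, 15.4, 10.96, 9.32 and 8.37 CPM in TAC. Each TAC heart lay below each sham heart, and Timp4 fell by 1.45 (SE 0.22, edgeR adjusted p = 0.00037). In vehicle-treated hearts its log2 change was -0.09, and the difference of -1.36 did not pass (edgeR adjusted p = 0.14). Adamtsl2 rose by 2.68, Adamts2, a procollagen protease, by 1.32 and Mmp23 by 1.10. In the list of 20 integrins, adhesion receptors and related genes 7 rose and 0 fell. Itgbl1, an integrin beta-like protein that is not an integrin subunit, rose by 2.27. Itga9 rose by 1.10, the collagen receptor Ddr1 by 0.64 and Itga6 by 0.34, which was -0.51 and not passed on the centred TPM.

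**Figure D2:**
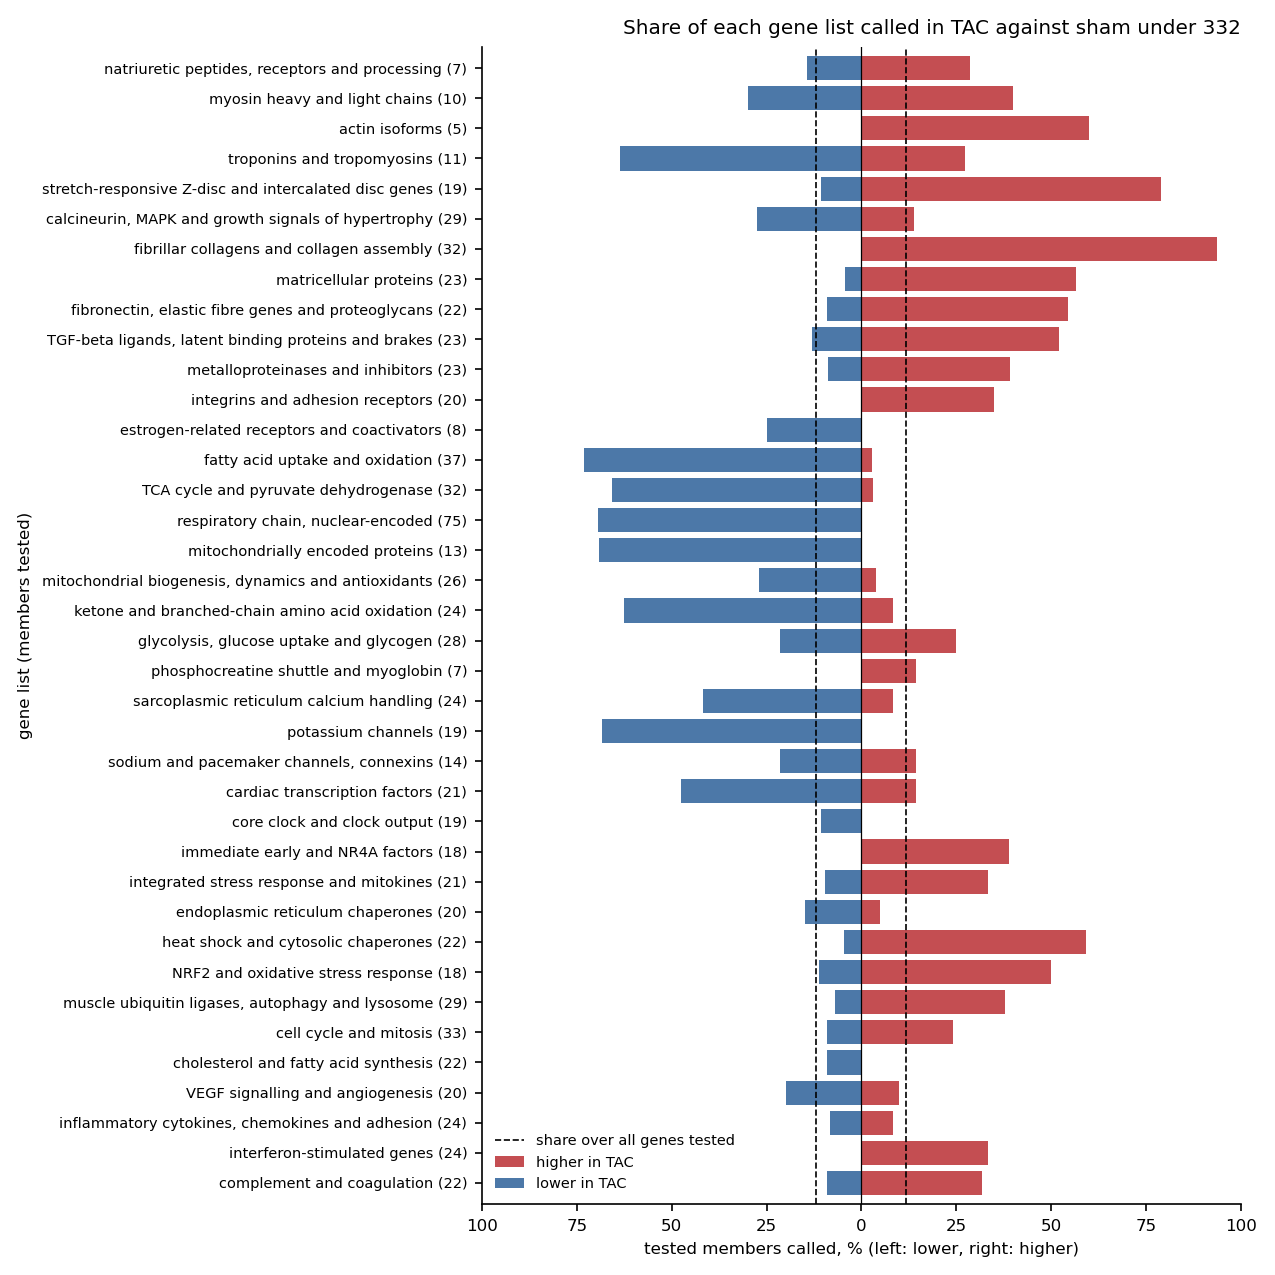
Percent of tested members of each gene list that were higher or lower in TAC than in sham hearts under 332, with dashed lines at the share over all genes (11.8% higher, 12.1% lower). Collagens hold 30 rises and no fall among 32, while fatty acid oxidation holds 27 falls among 37 and the nuclear respiratory chain 52 among 75 on the TMM scale (1 on the unscaled TPM).

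Of 8 genes for the receptors that 332 targets, their coactivators and the corepressor Nrip1, 2 fell and 0 rose. Esrra, which encodes ERR alpha (ENSMUSG00000024955.16), stood at 83.2, 81.7, 90.0, 87.8 and 90.3 CPM in sham and at 69.4, 71.5, 74.6, 76.6 and 82.6 CPM in TAC. The TAC hearts lay below the sham hearts of their own run with a small overlap across runs, and Esrra fell by 0.21 (SE 0.06, edgeR adjusted p = 0.00988), which was 0.20 on the unscaled TPM and did not pass there. Centred on the median gene it was -0.21. Esrrb and Esrrg had log2 changes of -0.06 and -0.19 and did not pass. Ppargc1a, the coactivator PGC-1 alpha, stood at 111, 138, 131, 88.4 and 77.1 CPM in sham and at 89.1, 87.2, 55.2, 48.0 and 67.0 CPM in TAC. It was lower within each run and fell by 0.64 (SE 0.19, edgeR adjusted p = 0.0264). That call was lost without TAC heart 3 or 4 or sham heart 2, 3 or 4, with adjusted p up to 0.0695 and log2 changes from -0.74 to -0.52. The other 4 members did not pass, with log2 changes of -0.26 for Ppargc1b, 0.25 for Pprc1, -0.07 for Perm1 and -0.21 for Nrip1. Vehicle-treated hearts showed 0 calls among these 8 genes, and no difference between the effects passed.

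Genes of fatty acid uptake and oxidation fell in most cases: 27 of 37 tested were lower and 1 higher, with a median log2 change of -0.45. Acadm, medium-chain acyl-CoA dehydrogenase and an ERR target in textbooks, stood at 971, 952, 1037, 1121 and 1081 CPM in sham and at 688, 749, 658, 551 and 855 CPM in TAC. No TAC heart reached a sham heart, and Acadm fell by 0.56 (SE 0.09, edgeR adjusted p = 0.000152). Hadha, the alpha subunit of the trifunctional protein, stood at 1217, 1255, 1335, 1589 and 1628 CPM in sham and at 853, 973, 824, 791 and 1141 CPM in TAC. It fell by 0.61, its partner Hadhb by 0.49, Decr1 by 0.61 and Etfb, which passes electrons on to the chain, by 0.69. Cpt1b, the muscle form of the enzyme that admits fatty acids to mitochondria, had a log2 change of -0.22 (edgeR adjusted p = 0.051) and did not pass. Cpt2 fell by 0.30 (edgeR adjusted p = 0.0365), a call lost in 6 of the 10 fits that left out 1 heart, with adjusted p up to 0.0832. Pdk4, the kinase that blocks glucose oxidation, stood at 326, 846, 195, 390 and 444 CPM in sham and at 343, 374, 388, 164 and 414 CPM in TAC, and the groups overlapped fully (log2 change -0.40, edgeR adjusted p = 0.556). Without the 3 sham hearts of lane 3, 14 members of the list were lower, with a median of -0.51. Without TMM factors 23 were lower, on the unscaled TPM 7 and on the centred TPM 24, and the median minus that of all genes was between -0.45 and -0.41 on each of these scales.

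The citrate cycle and the respiratory chain were lower by smaller amounts, about as much as the 12 cardiomyocyte markers (7 lower and 3 higher, median -0.32). The markers summed to 65560 to 70911 CPM in sham and 52389 to 59542 CPM in TAC in the first run, and to 80730 and 82953 CPM in sham and 53662 and 73715 CPM in TAC in the second. The markers include the respiratory chain gene Cox6a2, and Myh6, Tnni3, Tnnt2, Myl2 and Pln, which are themselves reported as falls. The marker median is therefore not a separate measure of myocyte content. The part of the markers in the falls of these lists was not tested. Of 32 genes of the citrate cycle and pyruvate dehydrogenase, 21 fell and 1 rose, with a median log2 change of -0.29. Sdha, the flavoprotein of succinate dehydrogenase, stood at 1261, 1287, 1357, 1425 and 1394 CPM in sham and at 949, 1016, 780, 777 and 1086 CPM in TAC and fell by 0.54 (edgeR adjusted p = 9.49e-05). Suclg1 fell by 0.47, Idh3g by 0.42 and Sdhc by 0.42. Of 75 nuclear genes of the respiratory chain, 52 fell and 0 rose, with a median of -0.27. Ndufs1 of complex I stood at 615, 638, 665, 639 and 595 CPM in sham and at 489, 537, 428, 386 and 516 CPM in TAC and fell by 0.42 (edgeR adjusted p = 0.000385). The ATP synthase genes Atp5o, Atp5pb and Atp5c1 fell by 0.40, 0.40 and 0.39. For both Sdha and Ndufs1 all TAC hearts lay below all sham hearts on the TMM scale. These small falls depend on the scaling: with library totals 13 of the 32 and 17 of the 75 fell, on the unscaled TPM 0 and 1 fell and 6 of each rose, and on the centred TPM 20 and 42 fell. On the unscaled TPM the medians of the lists were 0.12 and 0.09, with Ndufs1 and Atp5pb at 0.02 each, below the 0.35 of all genes.

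Of 13 protein genes of the mitochondrial genome 9 fell, with a median of -0.36. These transcripts differed between runs: mt-Nd5 stood at 29175, 27257 and 31080 CPM in the first-run sham hearts, at 11719 and 10713 in the second-run sham hearts, at 23311, 23462 and 15643 in the first-run TAC hearts and at 6872 and 8651 in the second-run TAC hearts. Within each run TAC lay below sham, and mt-Nd5 fell by 0.51 and mt-Nd1 by 0.45. Without the run term 1 of the 13 and 19 of the 75 nuclear genes passed as lower. Without the lane 3 sham hearts these counts were 1 and 13, while the medians were -0.41 and -0.28. Transcripts of the mitochondrial genome made 33.0% ± 4.18 (SD, n = 5) of all counts in sham and 29.1% ± 3.82 (SD, n = 5) in TAC, which did not pass (adjusted exact p = 0.229). That test does not take the run into account. Within each run every TAC heart lay below every sham heart, with differences of the means of -4.79 points in the first and -2.70 points in the second.

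Ketone and branched-chain amino acid oxidation held 15 falls and 2 rises of 24. The rise with the smallest p was Bdh1, the mitochondrial enzyme of ketone body use, at 73.0, 63.8, 41.7, 71.9 and 53.8 CPM in sham and 190, 124, 223, 196 and 165 CPM in TAC. Its groups did not overlap, and Bdh1 rose by 1.56 (edgeR adjusted p = 3.82e-05), while Mccc1, Pccb and Acadsb of amino acid breakdown fell by 0.45, 0.34 and 0.36 (Pccb 0.04 on the unscaled TPM). Among 28 genes of glycolysis, glucose uptake and glycogen 7 rose and 6 fell. Ugp2, which makes the glucose donor for glycogen, stood at 271, 291, 256, 230 and 195 CPM in sham and at 549, 358, 462, 356 and 373 CPM in TAC and rose by 0.76 (edgeR adjusted p = 3.39e-06). Pfkfb1 fell by 1.66, Ldhb by 0.45 and Pfkm by 0.35 (0.05 on the unscaled TPM). The 7 rises became 3 or 4 when TAC heart 3 or 4 or any 1 of sham hearts 2 to 5 was left out. Slc6a8, the creatine transporter, rose by 0.40 and was the 1 called gene of 7 in the phosphocreatine list, where Ckm had a log2 change of -0.21 (edgeR adjusted p = 0.0975). Sod2, the mitochondrial superoxide dismutase, fell by 0.39.

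**Figure D3:**
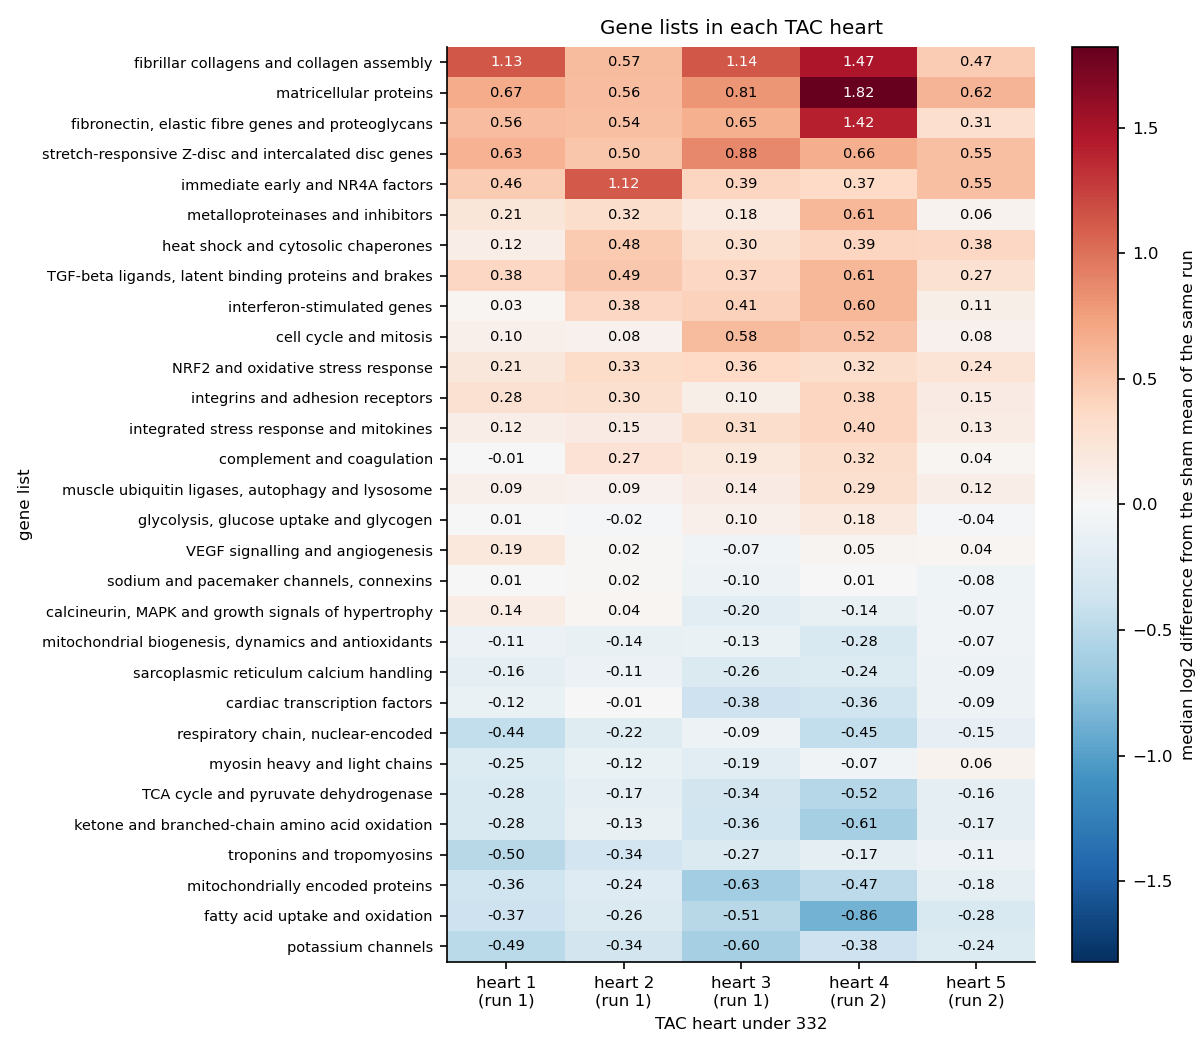
Median log2 difference of each gene list in each of the 5 TAC hearts from the sham mean of the same run, for lists with at least 5 called members, as a colour scale in log2 units. TAC heart 4 reaches -0.86 for fatty acid oxidation and 1.82 for matricellular proteins, while TAC heart 5 stands at -0.28 and 0.62.

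Across lists the hearts kept to the same order in part. For fatty acid oxidation the median difference was -0.37, -0.26, -0.51, -0.86 and -0.28 in TAC hearts 1 to 5. For collagens it was 1.13, 0.57, 1.14, 1.47 and 0.47. For the mitochondrial genome, however, TAC heart 3 was the lowest at -0.63, with TAC heart 4 at -0.47. TAC hearts 2 and 5 stood nearest to sham in both the collagen and the fatty acid list.

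Calcium cycling genes of the sarcoplasmic reticulum counted 10 falls and 2 rises of 24, and the rises were near the share over all genes (11.8%). Atp2a2, the SERCA pump, stood at 10210, 10128, 10864, 7869 and 7879 CPM in sham and at 7812, 8248, 6023, 3719 and 5967 CPM in TAC. The TAC hearts were below the sham hearts of their own run, and Atp2a2 fell by 0.58 (SE 0.11, edgeR adjusted p = 0.000504). Pln, phospholamban that restrains the pump, fell by 0.54 and Hrc, a calcium-binding protein, by 0.64. Strit1, whose small peptide DWORF activates SERCA, stood at 9.05, 12.1, 14.1, 11.7 and 10.2 CPM in sham and at 4.72, 6.91, 5.40, 3.11 and 6.33 CPM in TAC and fell by 1.11 (edgeR adjusted p = 0.000482).

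Potassium channels fell without an exception among the calls, 13 of 19 lower and 0 higher, with a median log2 change of -0.47. Kcnv2, a silent subunit of delayed rectifiers, stood at 14.7, 14.1, 16.9, 12.2 and 12.5 CPM in sham and at 5.32, 6.49, 2.31, 1.62 and 6.39 CPM in TAC and fell by 1.65 (edgeR adjusted p = 0.00284). Kcnj5 fell by 0.76, Kcnj2, the inward rectifier of the resting potential, by 0.67 and Kcnh2 by 0.58. Without the lane 3 sham hearts 3 of the 19 passed, with a median of -0.25. Of 14 other channels and connexins, Clic5 rose by 0.97, while Gja3 fell by 0.68 and the chloride channel gene Clcn1 by 1.53.

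Of 21 cardiac transcription factors 10 fell and 3 rose. Klf15, a repressor of hypertrophic genes that also drives amino acid and fatty acid use, stood at 29.3, 40.3, 33.1, 28.2 and 30.2 CPM in sham and at 18.2, 21.2, 16.7, 10.4 and 14.8 CPM in TAC. It was lower in every TAC heart and fell by 1.00 (edgeR adjusted p = 0.000441). Hey2 fell by 0.77 and the thyroid hormone receptor gene Thra by 0.38, while Srf, the factor that binds the CArG box marked in the Acta1 window, rose by 0.50. Among 18 immediate early and NR4A genes 7 rose, led by Egr2 at 2.14 and Egr3 at 2.09, with Egr3 at 0.278 to 1.79 CPM in sham and 1.98 to 6.01 CPM in TAC. That count of 7 was between 2 and 4 without TAC heart 2 or 3 or any 1 of sham hearts 2 to 5. Dio2, the deiodinase that activates thyroid hormone, rose by 3.59, from 0.441 to 1.34 CPM in sham to between 4.48 and 27.2 CPM in TAC, and by 2.91 without TAC heart 4. Nmrk2, a kinase of nicotinamide riboside, rose by 4.56, from 1.52, 2.64, 1.06, 1.32 and 1.96 CPM in sham to 13.6, 8.01, 27.9, 180 and 10.9 CPM in TAC (3.25 without TAC heart 4).

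Among called genes of at least 5 CPM whose ranges did not overlap, the falls of largest size were of other kinds. Some called genes of lower level fell further, among them the lane 3 transcript Myh3 at -5.11. Cenpf, a kinetochore and nuclear envelope protein, stood at 28.1, 28.5, 44.7, 39.9 and 30.5 CPM in sham and at 4.98, 6.79, 3.32, 1.41 and 6.26 CPM in TAC and fell by 2.90 (SE 0.29, edgeR adjusted p = 1.96e-05). Lgals4, a galectin, stood at 78.2, 71.1, 93.9, 132 and 125 CPM in sham and at 20.5, 35.5, 23.6, 15.6 and 46.8 CPM in TAC and fell by 1.78. Rgs2, which switches off Gq signals, stood at 18.1, 28.1, 28.5, 24.8 and 22.0 CPM in sham and at 7.29, 9.67, 7.72, 6.36 and 9.95 CPM in TAC and fell by 1.56 (edgeR adjusted p = 1.89e-05). In all 3 every TAC heart lay below every sham heart. Ces1d, a carboxylesterase, fell by 1.72, the sorting receptor gene Sorcs2 by 1.56 and Scara5 by 1.54.

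Of 22 heat shock and cytosolic chaperone genes 13 were higher and 1 lower, with a median log2 change of 0.41. The members with the smallest p were 4 small heat shock proteins. Hspb7, a muscle member, stood at 1882, 1841, 1796, 2071 and 1999 CPM in sham and at 3002, 2686, 2766, 2711 and 2925 CPM in TAC. Both groups were tight and well apart, and Hspb7 rose by 0.56 (SE 0.06, edgeR adjusted p = 3.99e-06). Hspb1 rose by 1.11, Hspb6 by 0.67 and Hspb8 by 0.61. Chaperones of the endoplasmic reticulum were mostly not called, with 1 rise and 3 falls of 20 and a median log2 change of -0.06. Over all genes 11.8% rose and 12.1% fell, so the falls were near the general share. Hspa5, its main HSP70, stood at 378, 376, 433, 425 and 409 CPM in sham and at 325, 343, 306, 289 and 338 CPM in TAC and fell by 0.33 (edgeR adjusted p = 0.00147). Canx fell by 0.27 and Herpud1 by 0.51, while Edem1 rose by 0.44. On the unscaled TPM Hspa5 was at 0.10 and Canx at 0.23, and neither passed.

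In the integrated stress response list 7 of 21 rose and 2 fell, among them the amino acid transporter gene Slc7a5 by 0.90, Aldh18a1 by 0.64 and Atf4 by 0.37, while Chac1 fell by 1.12. The 7 rises became 4 without TAC heart 4 or without sham heart 4. Of 18 oxidative stress genes 9 rose and 2 fell. Mt2, a metallothionein, stood at 4.12, 10.5, 4.77, 8.28 and 7.20 CPM in sham and at 13.8, 23.7, 37.9, 29.5 and 34.3 CPM in TAC and rose by 1.99. Srxn1 rose by 0.68, and Gstm1 and Sod1 fell by 0.46 and 0.33 (Sod1 0.13 on the unscaled TPM). Of 29 genes of muscle ubiquitin ligases, autophagy and the lysosome 11 rose and 2 fell. Sqstm1, the autophagy receptor p62, stood at 247, 243, 221, 267 and 289 CPM in sham and at 313, 379, 345, 406 and 397 CPM in TAC and rose by 0.54 (edgeR adjusted p = 1.46e-05). Pink1, the kinase that marks damaged mitochondria, fell by 0.62, from 430, 489, 500, 553 and 606 CPM in sham to 295, 342, 306, 304 and 429 CPM in TAC.

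Cell cycle genes counted 8 rises and 3 falls of 33, with a median log2 change of 0.37, and 5 rises without TAC heart 4. Their falls were near the share over all genes (12.1%). Ccnd1 rose by 0.54, Kif11 by 1.22 at no more than 2.62 CPM in any heart, and the inhibitor Cdkn1c fell by 0.70. Angiogenic genes counted 2 rises and 4 falls of 20, against 11.8% higher and 12.1% lower over all genes, so the rises were near the general share. Esm1 rose by 1.28 and the lymphatic receptor gene Flt4 by 0.44, while Pgf fell by 0.79 and Vegfb by 0.23 (0.10 on the unscaled TPM). Inflammatory cytokines and chemokines counted 2 rises and 2 falls of 24. These shares (8.33% each) lay below those over all genes. Cx3cl1 rose by 0.81 and Il6ra fell by 0.61, and the other fall was Cxcl2 (-1.80, edgeR adjusted p = 0.044), one of the lane 3 transcripts described below. Without the lane 3 hearts the list held 0 calls. Complement and coagulation genes counted 7 rises and 2 falls of 22, among them Cfb by 2.43 and the thrombin receptor gene F2r by 0.72.

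Interferon-stimulated genes counted 8 rises and 0 falls of 24, with a median log2 change of 0.39. Ifit2 stood at 12.9, 11.3, 9.36, 10.0 and 12.3 CPM in sham and at 16.5, 18.8, 18.4, 20.3 and 15.7 CPM in TAC and rose by 0.68 (edgeR adjusted p = 0.000117), and Ifit3b rose by 1.00. The list held 4 or 5 rises when TAC heart 3 or 4 or sham heart 3 was left out. Vehicle-treated hearts gave 1 rise and 1 fall and a median of 0.05. No difference between the 2 effects passed for a member of this list.

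Among markers of other cells, fibroblast genes rose and most other sums overlapped. The summed level of 16 fibroblast genes was 1322 to 1529 CPM in sham and 1673 to 3036 CPM in TAC, and 9 of the 16 rose. The other 7 did not pass, among them Pdgfra and Tcf21, which mark resting fibroblasts, with log2 changes of -0.09 and 0.13. Acta2 of the same list did not rise either. It stood at 57.4, 100, 56.0, 76.0 and 61.3 CPM in sham and at 61.4, 47.8, 32.6, 49.2 and 60.1 CPM in TAC. Its log2 change was -0.48 and did not pass. Endothelial markers summed to 1150 to 1381 CPM in sham and 1171 to 1416 CPM in TAC, and macrophage markers to 171 to 239 and 168 to 242 CPM. Smooth muscle and pericyte markers summed to 780 to 1006 and 539 to 935 CPM. In that list Cspg4 rose by 0.92 and Abcc9 fell by 0.82. In the macrophage list Cd163 fell by 0.68 and Fcgr1 rose by 0.95. Erythrocyte genes summed to 823 to 2100 CPM in sham and 1072 to 2688 CPM in TAC, with 0 of 6 called. The atrial markers summed to 916 to 1034 CPM in sham and 1357 to 2674 CPM in TAC, without overlap. Most of that sum came from Pam and Clu. Of 9 tested atrial markers 3 rose and 2 fell, with a median near 0. Kcnj3, an atrial potassium channel, fell by 1.08 and Stard10 by 0.57, while the rises included Pam, a peptide-amidating enzyme of secretory granules, by 0.94 (edgeR adjusted p = 1.3e-05) and Dkk3 by 2.78. Of the Schwann cell genes, Sox10 fell by 1.98 at low levels, from 0.883 to 1.53 CPM in sham to between 0.0706 and 0.686 CPM in TAC. The summed Schwann cell and neuron list overlapped, at 22.9 to 27.8 CPM in sham and 19.2 to 28.1 CPM in TAC. Of its 6 tested members 3 fell and 3 did not pass. How far fibroblast number moves with the matrix genes was not tested.

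Mesothelial markers, of the sheet that covers the heart, were lower in TAC. The summed level of 8 genes was 9.23 to 23.0 CPM in the sham hearts and 3.70 to 7.27 CPM in the TAC hearts, against 3.76 to 11.5 and 4.20 to 12.97 CPM in vehicle-treated sham and TAC hearts. Upk3b stood at 1.61, 7.62, 3.44, 7.79 and 6.25 CPM in sham and at 0.172, 0.122, 0, 0.777 and 0.132 CPM in TAC (edgeR adjusted p = 0.00557), and Upk1b at 0.448 to 2.11 CPM in sham and 0 to 0.122 CPM in TAC (edgeR adjusted p = 0.00226). Wt1, an epicardial factor, did not follow, with a log2 change of 0.11 (edgeR adjusted p = 0.671). The ranges of the sum did not overlap between sham and TAC under 332. The part of tissue sampling in these values was not tested.

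Skeletal muscle markers other than Acta1 were present in part of the sham hearts. Without Acta1 the list summed to 14.2, 17.9, 16.9, 14.8 and 3.13 CPM in the sham hearts and 2.01 to 2.75 CPM in TAC. Sham heart 4 of the second run was as high as the lane 3 hearts but through other genes, with Myh4 at 4.10 CPM (0 in the other sham hearts) and Atp2a1 at 2.92 CPM. Myh3, embryonic skeletal myosin, stood at 6.54, 7.15 and 6.27 CPM in the 3 sham hearts of lane 3, at 0 and 0.145 CPM in the other 2 sham hearts and at 0 to 0.429 CPM in all TAC hearts. Mylpf and Tnni1 showed the same pattern, as did Il1rn, Ccl3, Mybph, Myog, Acod1, Cxcl2 and Il1a, each more than 2 times higher in those 3 libraries than in any of the other 15. They were found by a screen made after the data were seen. Of these 10 transcripts 8 were called lower in TAC, and the trios of first-run hearts of the other 3 mouse groups held 0 such transcripts. The log2 change of Acta1 was 4.56 in the first run and 3.73 in the second, which has no lane 3 heart but holds sham heart 4. In all, leaving out the 3 hearts of lane 3 left 1045 calls, 1014 of them among the 3349.

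**Figure D4:**
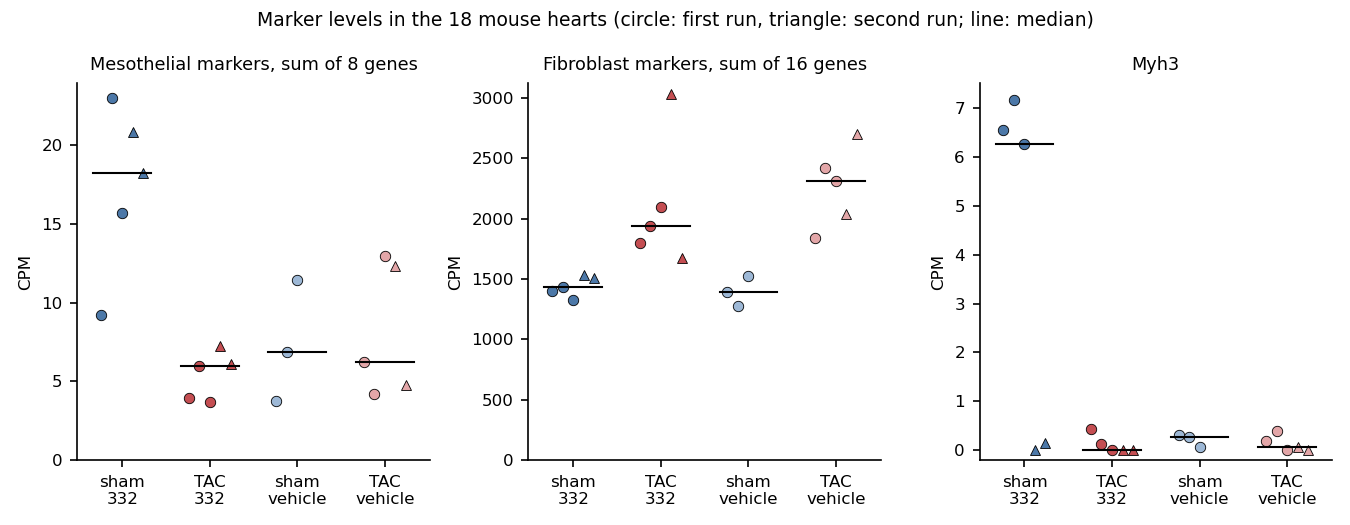
Summed CPM of 8 mesothelial markers and of 16 fibroblast markers, and CPM of Myh3, in each of the 18 mouse hearts by group, with circles for the first run, triangles for the second and a line at the median. The mesothelial sum is highest in sham hearts under 332 (up to 23.0), the fibroblast sum is higher in both TAC groups, and Myh3 exceeds 6 CPM in 3 sham hearts under 332 and no other heart.

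The same operation was compared in vehicle-treated hearts, which share no library with the 10 members but were fitted together with them. The vehicle sham hearts all came from the first run, while vehicle TAC hearts 4 and 5 came from the second. The vehicle effect therefore leans on the run term. First-run hearts under vehicle were all in lane 4, and lane 3 held only sham hearts under 332. Lane therefore also enters the comparison of the 2 effects and their difference. There 3703 genes passed (26.4% of those tested), 1900 higher (13.5%) and 1803 lower (12.8%). Of the genes called in both, 2093 of 2103 moved the same way, which is 62.5% of the list under 332 and 56.5% of the list under vehicle. Over all tested genes the 2 sets of log2 changes had a Pearson r of 0.619, a description across genes, which are not independent. Of the 1246 genes called under 332 alone, 1097 had the same sign under vehicle. Nppa rose by 3.96 and Nppb by 3.12 under vehicle, collagens gave 28 rises of 32 with a median of 1.45, and fatty acid oxidation gave 22 falls of 37 with a median of -0.39. The nuclear respiratory chain gave 66 falls of 75 under vehicle, with a median of -0.38.

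The difference of the TAC effects, 332 minus vehicle, passed for 9 genes (0.0641% of those tested), 3 positive and 6 negative, with 1406 genes at an unadjusted p under 0.05. DESeq2 gave 88, and the count was 0 without the run term, 0 on the TPM scales, 2 with library totals and 0 in 8 of the 18 fits that left out 1 heart. The negative ones were Clock at -0.92, Shb at -0.91, Hyou1 at -0.68, Stk24 at -0.65, Cald1 at -0.62 and Klhl30 at -0.54. Positive differences were 0.64 for Gramd1b, 0.94 for Tspan4 and 1.36 for Slc46a3, and all 9 edgeR adjusted p-values lay between 0.044 and 0.049. Clock, a core circadian activator, had a log2 change of -0.05 under 332 and 0.87 under vehicle, and Hyou1, a chaperone of the endoplasmic reticulum, -0.19 and 0.50. Tspan4 rose by 0.43 under 332 and fell by 0.50 under vehicle. A score of circadian phase made from the clock genes stood at -2.0 to 2.2 in sham and -0.2 to 2.0 in TAC hearts under 332, at 1.6 to 2.9 in sham and at -5.1 to -1.4 in TAC hearts under vehicle. With that score as a term 0 of the 9 differences passed, and 763 genes had an unadjusted p under 0.05. Clock is itself among the genes that make the score, and the score separates sham from TAC hearts under vehicle without overlap. The term therefore takes up part of the vehicle effect of TAC, and circadian phase and that effect cannot be told apart in this fit. In the endoplasmic reticulum chaperone list 19 of 20 differences lay below 0, against 49.3% of the differences of all genes, and only Hyou1 passed the test of the difference. The list was chosen with earlier results of these data known. Its members come from the same hearts and are not independent, so this count is a description and was not tested.

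**Figure D5:**
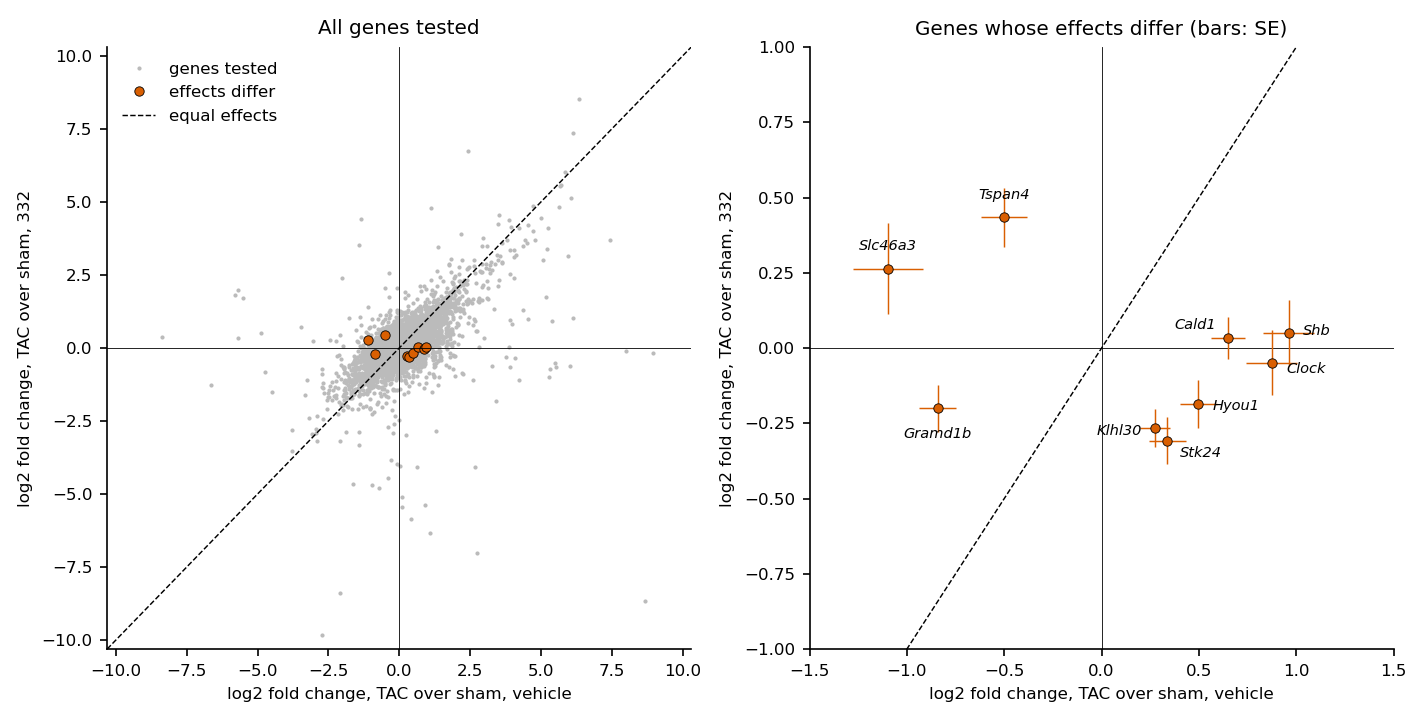
Left, log2 change from sham to TAC under 332 (vertical) against that under vehicle (horizontal) for 14047 genes. Right, both log2 changes with SE bars for the 9 genes whose difference passed, from Clock (-0.05 and 0.87) to Slc46a3 (0.26 and -1.10).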

How the data were processed

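Total RNA of the left ventricle was sequenced from TruSeq version 2 libraries, which do not keep strand, per the labels' protocols. The submitters' processing notes name fastp, Salmon and DESeq2 without versions, and build and annotation are not given in the sources used here. The authors deposited estimated counts and TPM per transcript, per the file headers. Here 140790 transcripts were summed to 54307 genes, of which 28190 had no count. Of the gene sums 7.43% were not whole and were rounded. The 18 mouse libraries were fitted as 4 groups with the sequencing run as a term in edgeR 4.0.16 (R 4.3.3): TMM factors from 0.884 to 1.15, filterByExpr with a minimum count of 10, robust quasi-likelihood F-test, Benjamini-Hochberg at 0.05 over the 14047 genes tested. CPM use TMM-scaled library sizes. The common biological coefficient of variation was 0.117. Depth was 11375894 to 16599899 estimated counts per 332 library. SE is the size of the log2 change divided by the root of F. Shares of gene pairs come from TPM and were tested by two-sided exact permutation over 252 splits (Python 3.11.15).

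The members and all gene lists were chosen with earlier results of these data known. Of 1037 entries in 50 lists, 960 were tested, 58 fell under the count filter and 19 names were not found. Named genes are the 10 largest rises and falls among called genes of at least 5 CPM with ranges that did not overlap, up to 4 called members of smallest p from each list, a core set, all members of family lists, all genes whose difference of effects passed, and any cell type marker with its level. Ccl3, Il1rn, Mybph, Myog, Adipoq and Scd1 are named only for their pattern over libraries. Some genes that the rule names are not reported here. The clock score is the first principal component of the clock genes (84.0% of their variance). RefSeq promoters were matched by symbol. On simulated data of 14047 genes, the TAC comparison under 332 recovered 59% of 100 genes changed by 0.5 (log2) and 73% of 100 changed by 1, with 5 false of 137 calls. The difference of effects recovered 16% and 54%, with 3 false of 73 calls. The simulated libraries had no run or lane effect, and only these genes changed, equally often up and down. In the data 23.8% of the genes tested passed and runs and lanes differed, so these rates need not hold there.

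Same-numbered TAC and sham hearts had correlations of deviations from -0.31 to -0.11, and none matched its own number best. This cannot decide whether the numbers pair the hearts, since paired hearts need not deviate alike. The labels do not say. Alternatives were RLE size factors, DESeq2 1.42.0, no filter, a minimum count of 50, only the groups compared, a replicate block, no run term, each run alone, a clock score term, removal of mitochondrially encoded genes, each heart left out and, chosen after seeing the data, the 3 hearts of lane 3 left out, library totals without TMM factors, and limma 3.58.1 on log2(TPM + 0.1), as deposited and centred on the median gene.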

Additional observations from a re-analysis of the deposited data

Results flagged for a closer look

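Among 388 groups of 5 hearts checked, 13 held 1 heart far from the others, where chance gives about 1 in 20. The check did not take the run into account. In sham heart 3, Col1a1 (25.9 CPM), Col3a1 (67.9 CPM), Ddr1 (10.4 CPM), Hyou1 (26.9 CPM) and Mfap5 (8.03 CPM) were far below the other sham hearts and Ces1d (126 CPM) far above them. In sham heart 5, Esrrg was low at 31.1 CPM. TAC heart 4 was apart in Myh7 (5306 CPM, high), Clcn1 (0.777 CPM, low) and Pdk4 (164 CPM, low). TAC heart 5 was apart in Myl2 (8126 CPM, high), Clic5 (285 CPM, low) and Slc7a5 (3.95 CPM, low). For Myl2 it lay below sham hearts 4 and 5 of its own run (9912 and 8827 CPM).

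The contrast of the log2 changes, 332 minus vehicle, passed for 9 genes, with adjusted p close to the threshold, and for 0 genes without the run term, with the clock score or in 8 of 18 fits without 1 heart. Positive differences were 1.36 for Slc46a3, 0.936 for Tspan4 and 0.641 for Gramd1b. Negative differences were -0.922 for Clock, -0.911 for Shb, -0.684 for Hyou1, -0.646 for Stk24, -0.615 for Cald1 and -0.54 for Klhl30.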

How the results depend on the processing

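The 3349 calls were 1662 in the first run alone (1585 shared), 52 in the second (51 shared), 2208 without the run term (2203 shared) and 1045 without the lane 3 hearts (1014 shared). Runs alone and the lane 3 set hold fewer hearts. DESeq2 gave 3333 calls, and the count was between 2488 (without TAC heart 4) and 3668 (without TAC heart 5) with 1 heart left out. The replicate block, which uses numbers that the labels do not say pair the hearts, gave 3115 calls and 6 differences of effects. The 9 differences were 88 with DESeq2, 15 at a minimum count of 50, 521 without a filter, 5 in the first run, 3 without lane 3, and 0 without the run term or with the clock score. Their count ran from 0 (8 of the 18 left-out hearts, both surgeries and both treatments) to 25 (without sham heart 3 under 332). It could not be fitted in the second run, which has no vehicle sham heart.

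Of 170 named genes that passed, 159 kept their call in all 10 fits without 1 heart, 2 kept it where they were tested, 143 kept it in the first run, 110 of 167 without lane 3 and 10 of 167 in the second run, and none changed direction in these fits. The cause of these losses was not tested. Of 35 list counts of at least 4, 31 moved by over 1.5 times without lane 3, 15 in the first run and 35 in the second.

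The scaling set the balance of directions. Library totals gave 4495 calls and 2 differences, the unscaled TPM 5053 and 0, and the centred TPM 2101 (1729 shared) and 0. Of the 170 named genes 158 kept their call with library totals, 111 on the unscaled TPM and 147 on the centred TPM. On the unscaled TPM the sign changed for Actc1 (0.29), Atp5pb (0.020), Canx (0.23), Ckm (0.10), Clock (0.42), Esrra (0.20), Esrrb (0.36), Esrrg (0.26), Hspa5 (0.10), Hyou1 (0.70), Itga6 (-0.10), Klhl30 (0.14), Ndufs1 (0.022), Npr1 (0.071), Nrip1 (0.13), Pccb (0.045), Pdgfra (0.32), Pdk4 (0.064), Perm1 (0.29), Pfkm (0.054), Ppargc1b (0.20), Shb (-0.061), Slc25a3 (0.097), Slc25a4 (0.058), Sod1 (0.13), Tpm1 (0.23) and Vegfb (0.097). On the centred TPM it changed for Cald1 (-0.29), Clock (0.014), Hyou1 (0.30), Itga6 (-0.51), Npr2 (-0.11), Shb (-0.46), Slc46a3 (-0.044) and Tnnc1 (-0.011). With library totals it changed for Actc1 (0.12), Clock (0.10), Esrrb (0.090), Furin (0.12), Npr1 (0.094), Pdgfra (0.062) and Perm1 (0.081). The difference of effects of Gramd1b was -0.11 on the unscaled and -0.21 on the centred TPM.

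The Col1a1 share differed by -0.33 points in the first run, by -0.64 to 1.66 with 1 heart left out and by 1.78 as a ratio of raw counts (adjusted exact p = 0.0298). The Tnni1 share differed by 0.0027 points in the second run. The Myl7 share differed by -0.0054 points as raw counts (adjusted exact p = 0.0298) and by -0.0077 to -0.0040 with 1 heart left out, and the Myh7 share by 7.74 to 13.7 points.

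Among the fits on counts, genes that passed in none of them also changed sign. In the first run Actc1 stood at 0.016, Esrrb at 0.048, Furin at 0.012, Npr3 at -0.024, Pdgfra at 0.0018 and Wt1 at -0.029 (log2). Clock stood at 0.032 without lane 3 and 0.037 in the second run, and Npr2 at -0.052 and -0.066. With 1 heart left out the ranges were -0.10 to 0.041 for Actc1, -0.017 to 0.080 for Cald1, -0.11 to 0.045 for Clock, -0.073 to 0.038 for Furin, -0.023 to 0.028 for Npr2, -0.0050 to 0.26 for Npr3, -0.022 to 0.12 for Shb and -0.00032 to 0.24 for Tcf21.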

Other observations

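Cholesterol and fatty acid synthesis genes were mostly not called: of 22 tested, 0 rose and 2 fell, with a median log2 change of -0.06. These falls were near the share over all genes (12.1%). Fdft1, squalene synthase, fell by 0.64 (edgeR adjusted p = 0.0178). Of 26 genes of mitochondrial biogenesis, dynamics and antioxidant defence 1 rose and 7 fell, with a median of -0.11. In that list the phosphate carrier Slc25a3 fell by 0.36, the outer membrane channel Vdac1 by 0.27 and the ADP/ATP carrier Slc25a4 by 0.33. On the unscaled TPM Slc25a3 was at 0.10 and Slc25a4 at 0.06, and neither passed. Of 19 clock genes and outputs 0 rose and 2 fell under 332, a share near that over all genes, and the 2 falls were 0 without TAC heart 4. Under vehicle 6 rose and 8 fell, and 1 of the 19 differences passed. The fibroblast matrix gene Mfap5 rose by 2.18.

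Markers of lymphocytes (0 of 6 tested), adipocytes (0 of 7) and erythrocytes (0 of 6) gave no call. Adipoq, the adiponectin gene, stood at 0 to 0.0896 CPM in the 6 first-run hearts under 332 and at 5.09 to 9.32 CPM in the 4 second-run hearts, and Scd1, a desaturase, at 8.21 to 15.4 and 40.1 to 64.6 CPM. Both were among 9 transcripts found, after the data were seen, to mark the second-run libraries of all groups.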
